A study of Mus musculus with 2 samples.

Results

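Cell junction genes were examined on 2 arrays of mouse embryonic stem cells, 1 from a culture on a 6-well plate and 1 from a culture in a microchamber. The genes were taken by symbol as all cadherins, claudins, gap junction connexins, alpha- and p120-family catenins, desmogleins, desmocollins and plakophilins, together with the Tjp scaffolds, Ocln, F11r, Epcam, Dsp and Jup. This gave 94 genes, measured by 99 probe sets, out of 23370 genes with a probe set that carries 1 symbol. The symbol rule itself uses no measured value, but it was chosen with earlier results of these data known. Both groups were cells of the ES-D3 line (CRL-1934, strain 129S2/SvPas), an established pluripotent line. Their labels differ only in the vessel, and the perfusion of the chamber cannot be told apart from it. Both were kept in 15% serum with 1000 U of leukaemia inhibitory factor (LIF), the cytokine that holds mouse stem cells undifferentiated. Cells were seeded at 20000 per square centimetre and total RNA was taken after 3 days, and the chamber was run with minimal perfusion. The study asked how culture in the confined volume of the chamber alters expression, and junction genes bear on how the cells adhere to each other there.

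With 1 array per group there was no replicate, so no test of the conditions was possible and every difference describes these 2 arrays. Values are log2 RMA values, which are probe intensities corrected for background, summarised per probe set and brought to the same distribution on both arrays. Differences are microchamber minus 6-well plate, so that a positive value is higher in the microchamber. Probe sets of a gene were averaged. Probe sets bind with unequal strength, so levels of different genes are not set in an order here. In bulk RNA, fewer cells of a type and less RNA per cell cannot be told apart.

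Junctions tie epithelial cells into sheets. In adherens junctions, classical cadherins bind the same cadherin on the next cell and hold the actin cytoskeleton through catenins. Desmosomes do the same for keratin filaments, through desmogleins and desmocollins that are anchored by plakoglobin, plakophilins and desmoplakin. Tight junctions, built from claudins and occludin on zonula occludens scaffolds, seal the space between cells, and gap junctions, built from connexins, pass small molecules between them. Mouse embryonic stem cells grow as compact colonies held by E-cadherin and are coupled by gap junctions.

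Among the 19098 genes whose higher array reached the 20th percentile of probe sets with 1 symbol (5.17 for the plate and 5.18 for the microchamber), the median difference was -0.01, a value that the shared distribution keeps near 0. Of the junction genes, 82 passed this filter and 12 did not, and 38 reached the array median, 6.13 for the plate and 6.10 for the microchamber. Both levels were asked of the higher array only, so a gene that reached one on 1 array alone has its direction fixed. The median difference was -0.02 over the 82 genes, of which 39 lay above 0 and 43 below. Over the 38 genes at or above the median it was -0.10, against -0.03 for all 12136 genes at or above the median.

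The shares of junction genes with a difference of 0.5 log2 units or more were close to those of all genes. At least 1 log2 unit (2-fold) lower in the microchamber was 1 junction gene, Pkp2, where 0.445% of all genes past the filter were, and none was as much higher, where 0.346% of all genes were. At 0.5 log2 units or more, Cdh9 and Jup were higher, and Pkp2, Cldn6 and Ocln were lower. The 2 higher genes make 2.44% of the 82 past the filter, with 3.6% of all genes as background, and the 3 lower genes make 3.66%, with 4.26% as background. Among the 38 genes at or above the median the shares were 5.26% higher and 7.89% lower, where all genes at that level gave 5.51% and 6.6%. Of the higher genes, Cdh9 reached the median on the microchamber array only, which fixed its direction in this share. Nearest to the bound of 0.5 log2 units lay Cldn9, just short of it at -0.4997. Of the genes past it, Ocln was the nearest, at -0.66.

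**Figure D1:**
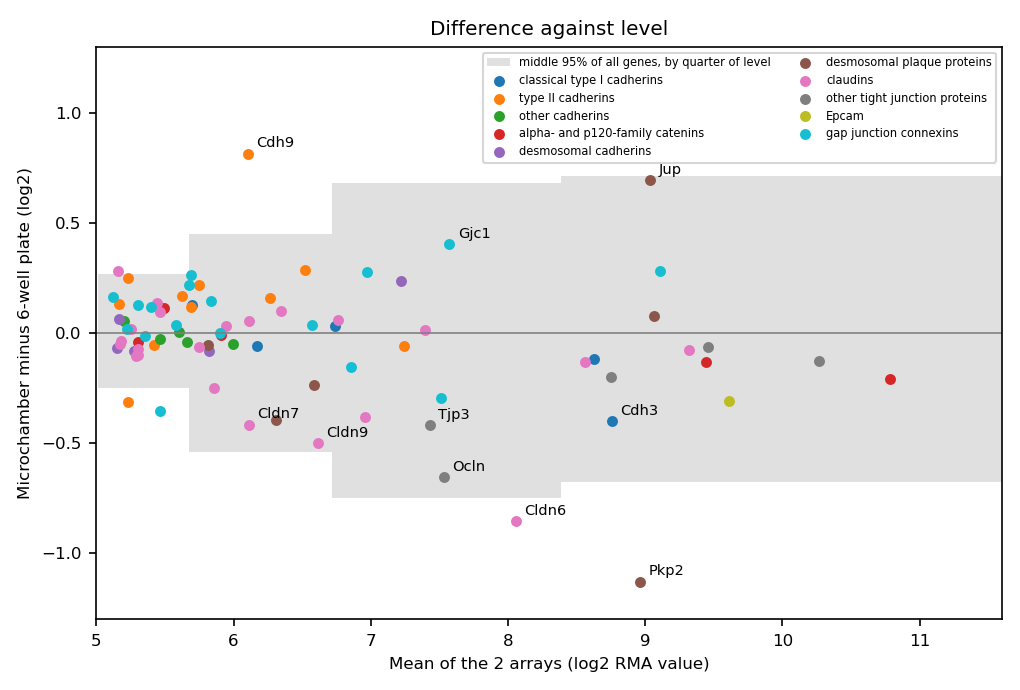
Microchamber minus 6-well plate difference (log2, vertical axis) against the mean of the 2 arrays (log2 RMA value, horizontal axis) for the 82 junction genes past the filter, coloured by junction type, with the middle 95% of all genes past the filter in each of 4 equal groups by level shaded. Pkp2, Cldn6 and Cdh9 lie outside the shaded range at higher levels, and Cdh10, Gja4 and Cldn2 just outside it at the lowest levels.

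Set against genes of similar level, 6 of the 82 genes (7.32%) lay outside the middle 95% of differences in their part of the level range, when all genes past the filter were cut into 4 equal groups by mean level. In the highest group this range ran from -0.68 to 0.71, and only Pkp2 lay beyond it. Jup, at 0.69, was inside. In the group below, from -0.75 to 0.68, only Cldn6 lay beyond, and in the next, from -0.54 to 0.45, only Cdh9. Another 3 genes, Cdh10, Gja4 and Cldn2, exceeded the narrow range of the lowest group, -0.25 to 0.27, where signal lies near the floor. Of these, Cldn2 passed the filter on the microchamber array only and Cdh10 on the plate array only, so the filter fixed their directions.

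Differences in desmosomal plaque genes ran both ways, and Pkp2 had the widest difference of the 82 junction genes past the filter. Pkp2 (chromosome 16, 16213345 to 16272712, GRCm38), the plakophilin that ties desmosomal cadherins to desmoplakin, had 9.53 on the plate and 8.40 in the microchamber. That is a difference of -1.13, or 2.19-fold lower, and 0.492% of all genes past the filter were at least as far apart. Jup (chromosome 11, 100368856 to 100397839) encodes plakoglobin, the armadillo protein that binds desmosomal and classical cadherins alike. It had 8.69 on the plate and 9.38 in the microchamber, which is 1.62-fold higher, and 3.16% of genes were as far apart. Plakophilin and plakoglobin, which sit side by side in the desmosomal plaque, thus differed in opposite directions.

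Dsp, the desmoplakin that grips keratin filaments, had 6.50 on the plate and 6.11 in the microchamber, a difference of -0.40. Pkp3 went the same way at -0.24, while Pkp4, a plakophilin relative found also at adherens junctions, was close to 0 at 0.08. Pkp1, the plakophilin of stratified epithelium, stayed below the array median with 5.84 and 5.79. Over the 6 plaque genes the median difference was -0.15, with 4 below 0.

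Of the 9 desmosomal cadherins, Dsg2 was the only one to reach the array median. Dsg2 (chromosome 18, 20558074 to 20604526) is the desmoglein of simple epithelia. Its probe sets disagreed. The brighter one had 8.57 on the plate and 9.19 in the microchamber, a difference of 0.62 or 1.54-fold higher, and the dimmer one, near the floor, had 5.63 and 5.49. The brighter one is numbered beside the other desmogleins and the dimmer one beside the desmocollins, so the dimmer one may not read Dsg2. Their mean gave 0.24, so Dsg2 counts among the genes past 0.5 log2 units by its brighter probe set and not by the mean. Dsc2, the desmocollin usually paired with Dsg2, lay below the array median with 5.86 and 5.78. The desmogleins and desmocollins of stratified epithelium were near the floor, with Dsc1, Dsg1c, Dsg3 and Dsg4 under the filter and Dsc3, Dsg1a and Dsg1b just past it. Dsc3 passed on the plate array only and Dsg1b on the microchamber array only, which fixed their directions. The Dsg1 genes are close copies, and signal may be shared among them.

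**Figure D2:**
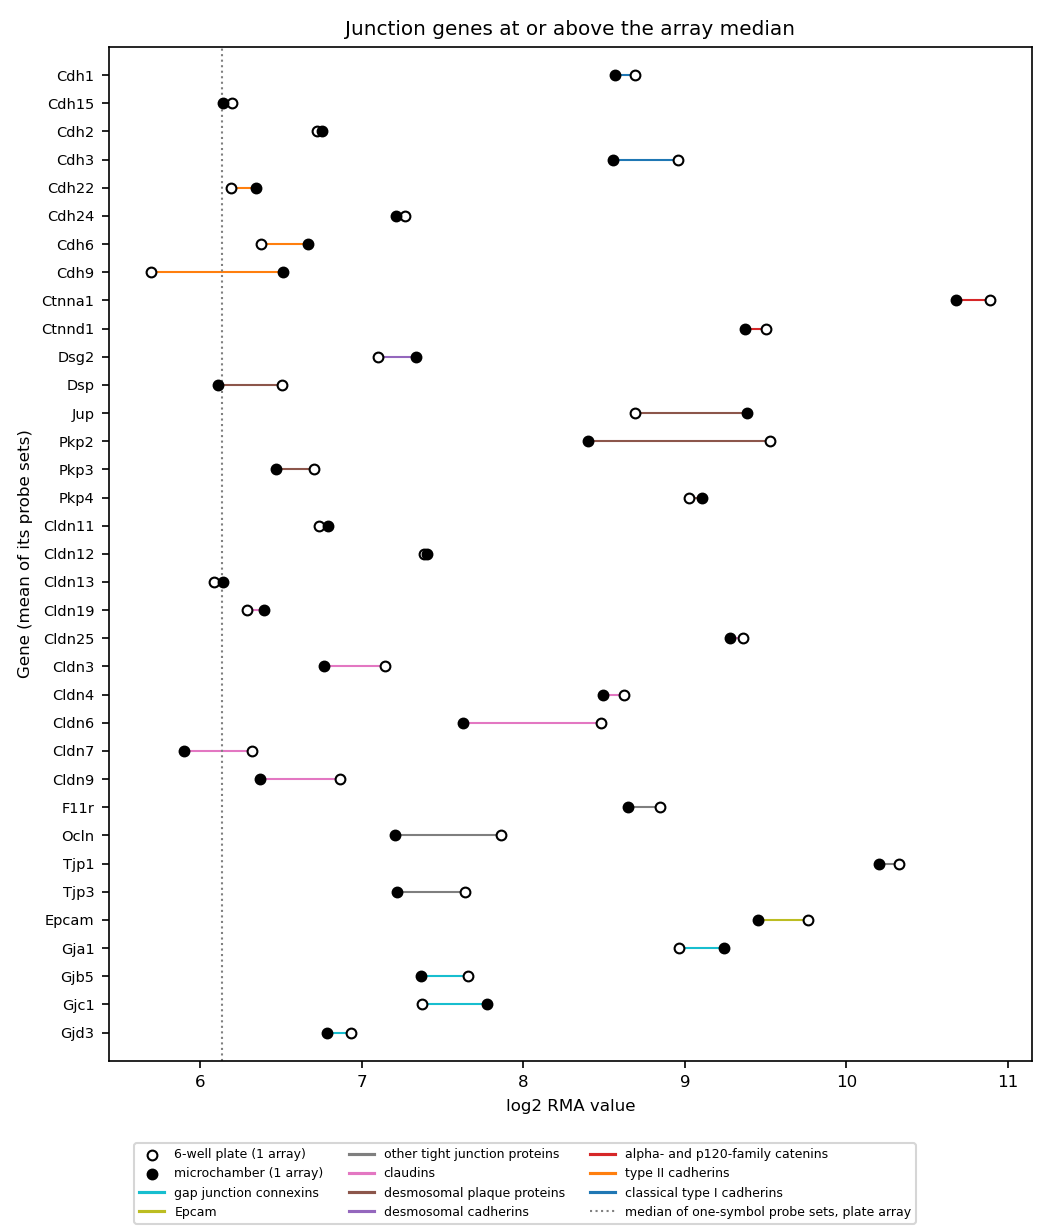
Log2 RMA values (horizontal axis) of 35 of the 38 junction genes at or above the array median, with the plate array as open and the microchamber array as filled points joined by a line in the colour of the junction type; the dotted line is the plate array's median of 6.13. The longest lines belong to Pkp2, Cldn6 and Ocln, lower in the microchamber, and to Cdh9 and Jup, higher there; Cdh1, Cdh2 and Dsg2 are means of 2 unequal probe sets.

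Among tight junction genes, occludin and the scaffold genes, together with F11r, all lay below 0, 5 of 5, with a median of -0.20, where 52.3% of all genes past the filter lay below 0. Ocln (chromosome 13, 100496504 to 100552718), a membrane protein of tight junction strands, had 7.86 on the plate and 7.21 in the microchamber, which is 1.58-fold lower. Tjp3, a scaffold found mainly in epithelia, was at -0.42. The scaffold Tjp1 differed little, with 10.33 on the plate and 10.20 in the microchamber. F11r, the junctional adhesion molecule A, was at -0.20.

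Of 25 claudins, 22 passed the filter and 10 reached the array median, and 6 of those 10 were below 0, where 54.0% of all genes at or above the median were. Cldn7 reached the median on the plate array only and Cldn13 on the microchamber array only, which fixed their directions in this count. Without Cldn25, whose identity is in doubt, 5 of 9 were below 0. Cldn6 (chromosome 17, 23679348 to 23682446), a claudin of early embryonic epithelium, had 8.48 on the plate and 7.63 in the microchamber. That is 1.81-fold lower, and 1.50% of genes were as far apart. Cldn9, its neighbour on the chromosome, had 6.87 and 6.37. Cldn7, a claudin of simple epithelia that partners with Epcam, was at -0.42, and Cldn3, a barrier-forming claudin, at -0.38. Cldn4, another barrier-forming claudin, differed less, with 8.63 on the plate and 8.49 in the microchamber. The claudins lower in the microchamber thus differed by unequal amounts, and others at this signal level were slightly above 0.

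The 4 claudins at or above the median that were not below 0 were Cldn11, Cldn12, Cldn13 and Cldn19, at 0.06, 0.02, 0.06 and 0.10. The array names a further gene Cldn25, with 9.36 and 9.28. RefSeq holds this symbol only as a synonym, of Cldnd1 on chromosome 16 and of Cldn25-ps on chromosome 9, and the probe set is numbered among genes of chromosome 16. Its values are therefore not read as those of a claudin. In the same way Cldn26 is held as a synonym of Tmem114. Among the 12 claudins past the filter but under the array median, differences ran from -0.25 for Cldn26 to 0.28 for Cldn2, the pore-forming claudin, whose plate value of 5.01 lay under the filter. Over all 22 the median was -0.06.

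**Figure D3:**
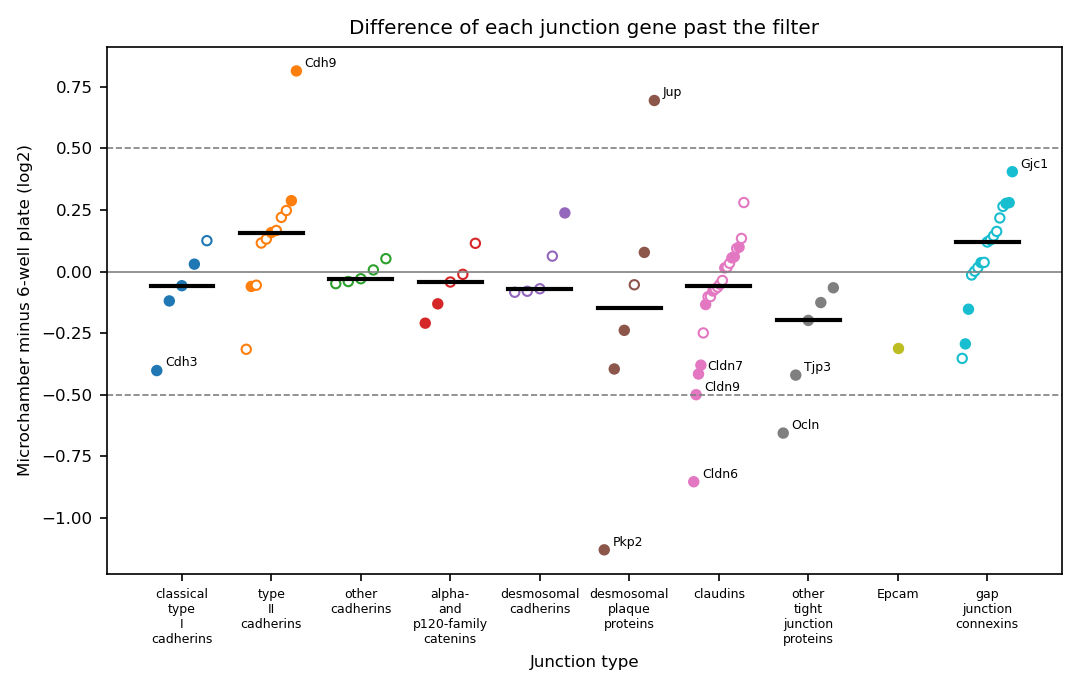
Microchamber minus 6-well plate difference (log2, vertical axis) of each of the 82 junction genes past the filter, grouped by junction type (horizontal axis); filled points reached the array median, open points did not, horizontal bars are medians and dashed lines mark 0.5 log2 units. All 5 points of the other tight junction proteins lie below 0, and most connexins and type II cadherins lie above it.

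Of the 5 genes at least 0.5 log2 units apart, 4 have an entry in the RefSeq promoter table (GRCm38.p6), and the 250 bases before each listed start were searched on both strands for CACCTG, the E-box bound by SNAI and ZEB repressors of junction genes, and for ACGTG, the core of the hypoxia response element. Shown 5′ to 3′ is the stretch of these windows that lies before the whole RefSeq gene, for 2 genes lower and 1 gene higher in the microchamber; the Cdh9 window lies within its gene and is not shown. Capitals mark matches to either motif, and none overlapped. A match is a description of the letters and not a shown binding site.
Cldn6 (chr17:23679115-23679347, plus strand): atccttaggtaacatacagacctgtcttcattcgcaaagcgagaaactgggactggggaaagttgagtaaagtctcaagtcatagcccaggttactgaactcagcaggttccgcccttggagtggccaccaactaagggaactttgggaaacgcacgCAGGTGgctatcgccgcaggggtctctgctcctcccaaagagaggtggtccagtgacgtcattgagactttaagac
Ocln (chr13:100552719-100552968, minus strand): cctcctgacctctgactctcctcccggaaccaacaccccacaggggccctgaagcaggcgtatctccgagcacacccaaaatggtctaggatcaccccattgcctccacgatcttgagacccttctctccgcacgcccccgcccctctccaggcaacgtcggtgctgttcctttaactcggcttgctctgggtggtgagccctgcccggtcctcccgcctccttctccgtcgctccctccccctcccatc
Jup (chr11:100397840-100398040, minus strand): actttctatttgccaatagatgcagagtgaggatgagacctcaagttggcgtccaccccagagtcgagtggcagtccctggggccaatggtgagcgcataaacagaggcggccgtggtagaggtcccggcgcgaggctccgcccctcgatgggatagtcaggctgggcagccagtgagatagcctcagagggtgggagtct

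Cldn6 held 1 E-box, read as CAGGTG on the strand shown, and the windows of Jup, Cdh9 and the upstream Ocln start held none. A second Ocln start in the table, whose window lies almost wholly within the gene, held 2 E-boxes. The hypoxia core was in none of these 5 windows. Over the 76 promoter windows of the 56 junction genes in the table, 22.4% held the E-box and 11.8% the hypoxia core, where 17.2% and 16.6% of all 32851 windows did. Of the repressors themselves, Zeb1 was at 0.51, with 6.14 on the plate and 6.65 in the microchamber, while Snai1 was at 0.03, Snai2 at 0.14 and Snai3 at -0.33. The repressors Twist1 and Twist2 were at -0.35 and -0.48, so the repressors measured did not share a direction.

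Among the classical type I cadherins, E-cadherin was level. By its brighter probe set Cdh1 (chromosome 8, 106603350 to 106670247) gave values of 10.80 for the plate and 10.79 for the microchamber, a difference of -0.01. Its dimmer probe set, 6.58 and 6.35, is numbered among genes of the strand opposite to the brighter one. Cdh2, the neural cadherin, was also level at 7.60 on both arrays by its brighter probe set; the dimmer one, 5.85 and 5.91, is numbered among genes of another chromosome. Cdh3, the placental cadherin and neighbour of Cdh1, was the exception among those at or above the array median, with 8.96 on the plate and 8.56 in the microchamber, a difference of -0.40. Cdh15, the muscle cadherin, and Cdh4, the retinal cadherin, lay close to the array median or under it. The probe sets of Cdh4, both under the array median, differed, with 0.27 for the brighter one and -0.02 for the dimmer one. The E-cadherin and N-cadherin genes thus had nearly equal values on both arrays by their brighter probe sets.

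Type II cadherins were mostly faint. Of 13 genes 11 passed the filter, and 4 reached the median. Above 0 were 8 of the 11, where 46.9% of all genes past the filter were, and the median was 0.16. Cdh12 and Cdh20 passed the filter on the microchamber array only and Cdh10 on the plate array only, which fixed their directions. Cdh9 (chromosome 15, 16728550 to 16857138), a cadherin of neurons, had 5.69 on the plate and 6.51 in the microchamber, which is 1.76-fold higher. The plate value lay below the array median, so the fold is taken against low signal. Cdh6, the kidney cadherin, was at 0.29, Cdh22 at 0.16 and Cdh24 at -0.06. Cdh9 thus stood apart from the other type II genes, whose differences ran from -0.32 for Cdh10 upwards to that of Cdh6. Cdh5, the endothelial cadherin, had 5.64 and 5.86, and Cdh11, the mesenchymal cadherin, 5.44 and 5.39, both below the array median. The 5 remaining cadherins, Cdh13, Cdh16, Cdh17, Cdh23 and Cdh26, were all below the median too, between -0.05 and 0.05.

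The cytoplasmic partners of cadherins showed small differences. Ctnna1, the alpha-catenin that links cadherins to actin, had 10.89 on the plate and 10.68 in the microchamber. Ctnnd1, p120-catenin, which holds cadherins at the surface, had 9.50 and 9.37. Ctnna2, Ctnna3 and Ctnnd2, known mainly from brain or heart, were below the array median. Beta-catenin itself, which is outside the symbol rule, was level, with 11.36 and 11.34 for Ctnnb1. Epcam, an adhesion molecule of epithelia and of embryonic stem cells, had 9.76 on the plate and 9.45 in the microchamber, a difference of -0.31.

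Connexins leaned the other way. Of 20 connexins 17 passed the filter, and 13 of them lay above 0, where 46.9% of all genes did, with a median of 0.12 and none as much as 0.5 log2 units apart. Gja6, with 5.04 on the plate and 5.20 in the microchamber, passed on the microchamber array only, which fixed its direction. Only 6 connexins reached the array median, and of these 4 were above 0, where 45.7% of all genes at or above the median were. Gja1, the connexin best known from mouse embryonic stem cells, had 8.96 on the plate and 9.24 in the microchamber, a difference of 0.28. Gjc1, the connexin of the early heart, was the highest difference of the family, with 7.37 and 7.78. Gjb5, a connexin of trophoblast and skin, was lower with 7.66 on the plate and 7.36 in the microchamber. Gjd3 was also lower, at -0.15. The connexins with clear signal were therefore mixed in direction, and Gja4, the endothelial and oocyte connexin, was the lowest of all at -0.35 with values of 5.64 and 5.28 near the floor.

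Several of these genes lie next to each other, a feature the symbol rule did not use. Taking genes no more than 100 kb apart in RefSeq, Cldn6 and Cldn9 lie 138 bases apart and were the pair with the lowest differences. Cldn4 and Cldn3, 39280 bases apart on chromosome 5, were also both lower, and their neighbour Cldn13 was at 0.06. Cdh3 and Cdh1, 46439 bases apart on chromosome 8, were unequal, with -0.40 for Cdh3 and -0.01 for the brighter Cdh1 probe set. In the desmoglein group on chromosome 18, only Dsg2 had clear signal.

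**Figure D4:**
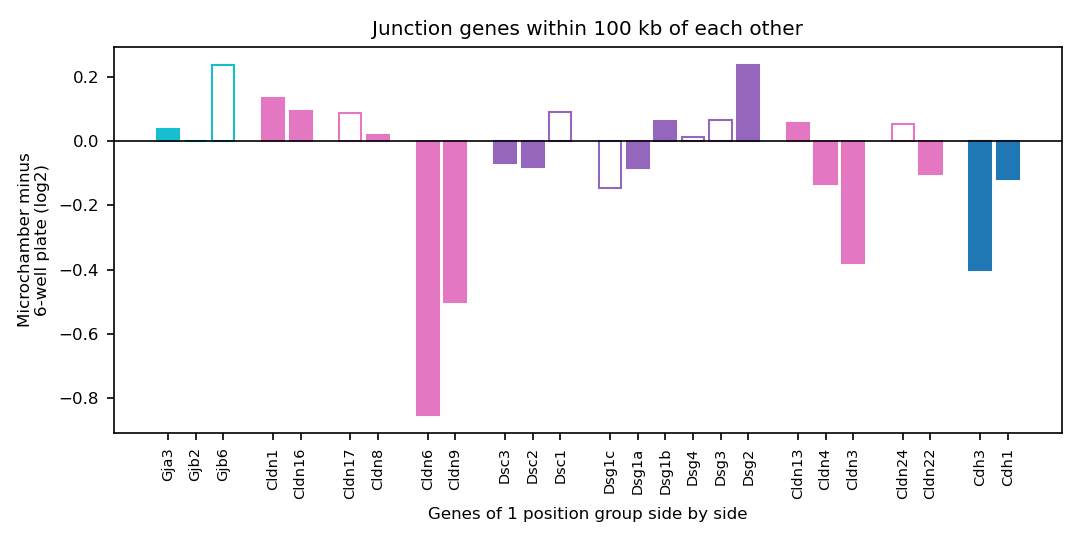
Microchamber minus 6-well plate difference (log2, vertical axis) of junction genes that lie within 100 kb of each other, set side by side by position group (horizontal axis); outlined bars are genes under the filter and colours are those of the junction types. Cldn6 and Cldn9 are both lower, and so are Cldn4 and Cldn3 by smaller amounts, while Cldn13 beside them is slightly higher; 1 position group is not drawn.

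The wider machinery of the junctions was summarised by lists, beside the 52.3% of all genes past the filter that lay below 0. Of 35 tight junction partners and polarity genes past the filter, 22 (62.9%) lay below 0 with a median of -0.06. Only Jam2 was at least 0.5 log2 units apart, 2.86% of the list, where 3.6% of all genes past the filter were as much higher. Jam2, a junctional adhesion molecule, had 11.15 on the plate and 11.72 in the microchamber, opposite to F11r of the same family. Jam3, also of that family, was higher too, with 7.26 on the plate and 7.46 in the microchamber. Of 21 nectins and adherens junction partners, 13 (61.9%) lay below 0 with a median of -0.10. Pvr, a nectin-like receptor, was the only one past 0.5, with 9.31 on the plate and 8.63 in the microchamber. It makes 4.76% of that list, where 4.26% of all genes past the filter were as much lower. The 3 pannexins, channel proteins related in shape to connexins, lay between -0.21 and 0.10, and the 10 cadherin-processing proteases past the filter had a median of 0.05.

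Keratins and other proteins of the desmosome's surroundings were lower. All 8 genes of that list were below 0, where 52.3% of all genes past the filter were, and the median was -0.18. At least 0.5 log2 units lower were 3 of them (37.5%), where 4.26% of all genes past the filter were. Krt19, a keratin of simple epithelia, had 7.97 on the plate and 6.63 in the microchamber, which is 2.53-fold lower. Krt18, its relative, had 7.07 and 6.44, and Perp, a desmosomal membrane protein, had 9.16 and 8.57. Krt8, the partner of Krt18, was level at 7.69 and 7.66, so the members of this keratin pair differed unequally. Of the 21 repressors and activators of epithelial genes 14 (66.7%) were below 0, with a median of -0.25. Elf3, an ETS factor of epithelia, was 2.83-fold lower, Tfap2c, a factor of trophoblast and epithelium, was at -0.62 and Grhl3, a grainyhead factor, was at -0.50.

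Markers of other cell types were examined beside these values, since epithelial junction genes are also made by trophectoderm and endoderm. Of 11 trophectoderm markers 10 passed the filter and 8 of those were below 0, where 52.3% of all genes past the filter were. The 11 had a summed log2 level of 71.2 on the plate and 66.9 in the microchamber. Ascl2 was 2.70-fold lower, and Krt18 and Krt19 are on this list too, while Cdx2 and Gata3 were below the array median on both arrays and Tpbpa was under the filter. Their part in the lower values of Pkp2, Cldn6 and Ocln was not tested. Of 14 endoderm markers 9 were above 0, where 46.9% of all genes past the filter were, with sums of 99.6 and 102.3. The widest differences were those of the uptake receptor Cubn at 1.48 and the apolipoprotein Apoe at 0.53. The other 5 lay below 0, with Gata6 at -0.17, Hnf4a at -0.16, Amn at -0.04, Afp at -0.03 and Gata4 at -0.01. Fibroblast markers summed to 91.5 and 89.7, with 10 of the 12 past the filter below 0 and Dcn, Lum and Postn under it.

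Endothelial and blood markers summed to 62.7 and 62.8. Only Pecam1, which mouse embryonic stem cells also make, was past 0.5 in that list, at 0.51, and Ptprc and Hbb-bh1 were under the filter. The part of the endoderm, fibroblast and endothelial markers in the junction values was not tested either. The 12 markers of pluripotent cells all reached the array median, with Nanog at 12.10 and 12.17, Sox2 at 11.86 and 12.11 and Zfp42 at 12.58 and 12.81. Pou5f1 had 7.74 and 8.10, Dppa5a 6.57 and 6.27, and Dppa3 6.16 and 6.00, the last reaching the median on the plate array only. Above 0 were 8 of the 12, where 45.7% of all genes at or above the median were. The other 4 were below, where 54.0% of all genes at that level were. Within that list Tcl1, a co-activator of AKT, was at 1.18 and Tdgf1, a Nodal co-receptor, at -0.82.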

How the data were processed

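RNA of 2 cultures was measured on Affymetrix Mouse Gene 2.0 ST arrays. The authors corrected probe intensities for background, summarised and normalized them with RMA and deposited log2 values, per the series design text and the file headers, which name the mm10 annotation. A log2 fold change and an absolute fold, a ratio with no sign, were deposited beside them; the former equalled plate minus microchamber within 1e-05 for all 33793 probe sets. Transcriptome Analysis Console 3.0 and Affymetrix Expression Console 1.4.1 are named in the submitters' processing notes. RMA gives both arrays the same distribution, so a shift of most genes would not be seen.

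Probe sets with 1 symbol (24708) were averaged per gene. Counts, medians and promoter motifs were computed with Python 3.11.15, pandas 2.3.3 and numpy 2.4.6. The counting step was tested on simulated data. Symbols matched RefSeq (GRCm38) for 92 of the 94 junction genes, and 56 had a promoter entry. Where a gene had 2 probe sets, the 10 uniquely named genes numbered nearest to each gave its likely chromosome and strand, a reading that was right for 99.4% of 2000 sampled probe sets. Chromosome 18 has no strand in the table used here.

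Named genes were those at least 0.5 log2 units apart, the 3 with the highest signal of each type, a fixed set of junction genes, genes with disagreeing probe sets, up to 4 genes per list past 0.5, and genes within 100 kb of another. Other genes, such as Snai1, Snai2, Krt8, Jam3, Ctnnb1, Nanog, Sox2, Zfp42 and the remaining junction genes, were named after their values were seen. The junction genes, the 11 lists and the tests were chosen with earlier results of these data known. The number of arrays limits the precision. Some junction genes enter the counts and are not reported here by name.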

Additional observations from a re-analysis of the deposited data

How the results depend on the processing

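Values were recomputed without the filter, with it set at the array median, with differences centred on their median, the brightest probe set of a gene, shared probe sets under their first symbol, the series value table, and means in place of medians. One more, leaving out 3 probe sets numbered at another strand or chromosome, was chosen after seeing the data. It could not judge the dimmer Dsg2 probe set, since chromosome 18 has no strand in the table used. Of 93 alternative values of counts and medians, 91 stayed within 1.5 times the count, within the 95% binomial interval of the median or, for the 7 types of at most 6 genes past the filter, where that interval is their whole range, within 0.20, the standard deviation of probe set differences within 901 genes. The exceptions, both with the filter at the array median, where faint genes drop out by construction, were the median of the junction genes, at -0.10, and that of the desmosomal cadherins, which changed from -0.07 to 0.24 with Dsg2 alone left. The value of -0.07 is that of Dsc3, whose direction the filter fixed. Of 175 alternative values of named genes, 174 moved by less than 0.20; the exception was Dsg2, at 0.62 by its brightest probe set. No difference of 0.5 log2 units or more changed sign. The desmosomal cadherin median was 0.01 without the filter, as was the mean. The medians ranged from 0.08 to 0.16 for connexins, -0.29 to -0.19 for occludin, F11r and the scaffolds, and -0.11 to -0.04 for claudins. No paired analysis was possible because each group had 1 array, and for the same reason no array could be left out. Differences are compressed at low signal, so small values of the 56 genes under the array median do not show equal expression.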

Other observations

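A probe set shared by Gpr89 and Gja5 had 8.38 on the plate and 8.40 in the microchamber, where the probe set of Gja5 alone had 5.34 and 5.46. The former cannot be read as a level of the connexin.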
